A study of Mus musculus with 6 samples.

Results

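A set of 41 names for genes of blood vessels, lymphatic vessels and pericytes was followed in mammary epithelial preparations with and without Plk2, a polo-like serine/threonine kinase. Of these names, 39 are gene symbols with a probe on the array, out of 20145 named genes there, and 2 are placeholder entries that match no gene and have no value. The members were chosen by name for their known place in the vascular wall, with earlier results of these data known, so counts over them describe the list and are not independent support for a direction. The study set 3 Plk2 null samples (genotype Plk2 -/-) against 3 wild-type samples, all from 8-week-old female mice of a mixed 129sv/C57Bl6 background. Mammary glands were dissociated to give primary mammary epithelial cells, and each sample's RNA was labelled with Cy3 and put on its own 1-colour Agilent array. The labels do not say whether each sample came from 1 animal or from several, so p-values measure only the spread between these samples. The labels name no purification by cell surface marker, and cells of vessels can remain in such a preparation. The epithelial markers Epcam, Krt8 and Krt18 lay above the array's 75th percentile of signal in all 6 samples.

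Endothelial cells line blood and lymphatic vessels, and pericytes wrap around capillaries within the same basement membrane. Endothelial cells are held together by junction proteins such as VE-cadherin and claudin, respond to VEGF and angiopoietins through receptor tyrosine kinases, and display selectins and other adhesion proteins when leukocytes leave the blood. Pericytes are recruited through the PDGF receptor beta and carry the proteoglycan encoded by Cspg4. In the mammary gland, vessels run through the fat pad around the ducts, and high endothelial venules, the specialised venules where lymphocytes leave the blood, lie in its lymph nodes.

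All 6 arrays lay on 1 slide, with the null arrays in one row and the wild-type arrays in the other, and the effect of a row cannot be told apart from that of genotype. Probes well above background numbered between 28514 and 30504 on null arrays and between 27969 and 29113 on wild-type arrays, of 55681. With so few arrays, their number sets the precision. Plk2 itself (NM_152804, chromosome 13) was not well above background on any null array. With those arrays held at their detection limits, Plk2 was at least 151.8-fold lower than in wild type. The fit (limma adjusted p = 3.62e-06) used the null values as read, so its p does not belong to that bound. Null sample 3 stood apart from the others on the second principal component, at -74.0 against -2.88 to 26.5. Across 24613 entries, 56 rose and 83 fell in null samples at an adjusted p under 0.05 (limma with Benjamini-Hochberg adjustment, 0.565% of entries). That split was 179 and 166 with arrays centred on their median, and 385 and 151 with arrays scaled on spike-in controls.

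RefSeq promoter windows, which run from 250 bases before to 50 bases after the transcription start on GRCm38.p6, were found for 24 of the 39 genes. Shown here are those of 4 members whose null and wild-type arrays did not overlap (described further down): the receptor gene Flt1, the selectin gene Selp, the sulfotransferase gene Chst4 and the pericyte gene Cspg4. Capitals mark AGGAAG or CGGAAG on either strand, which are among the letter strings that ETS transcription factors of endothelial cells recognise. Other forms of ETS sites are not marked.
Flt1, chr5:147725962-147726261, minus strand: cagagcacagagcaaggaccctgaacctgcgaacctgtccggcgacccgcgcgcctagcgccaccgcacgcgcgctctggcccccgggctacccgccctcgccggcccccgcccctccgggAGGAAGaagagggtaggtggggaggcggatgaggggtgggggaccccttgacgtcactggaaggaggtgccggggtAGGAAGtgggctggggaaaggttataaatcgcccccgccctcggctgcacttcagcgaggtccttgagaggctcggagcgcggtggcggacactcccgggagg
Selp, chr1:164115014-164115313, plus strand: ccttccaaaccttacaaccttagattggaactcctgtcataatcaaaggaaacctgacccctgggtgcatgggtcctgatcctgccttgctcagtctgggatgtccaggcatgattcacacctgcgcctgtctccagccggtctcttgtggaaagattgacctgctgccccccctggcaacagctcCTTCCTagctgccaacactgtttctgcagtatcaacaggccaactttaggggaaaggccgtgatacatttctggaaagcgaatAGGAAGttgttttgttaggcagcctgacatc
Chst4, chr8:110039285-110039584, minus strand: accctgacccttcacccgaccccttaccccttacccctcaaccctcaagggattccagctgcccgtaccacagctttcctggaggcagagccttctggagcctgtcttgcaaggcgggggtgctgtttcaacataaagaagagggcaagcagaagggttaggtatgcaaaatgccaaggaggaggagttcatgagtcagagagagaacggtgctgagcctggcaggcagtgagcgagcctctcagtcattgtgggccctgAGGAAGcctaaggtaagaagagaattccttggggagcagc
Cspg4, chr9:56864854-56865153, plus strand: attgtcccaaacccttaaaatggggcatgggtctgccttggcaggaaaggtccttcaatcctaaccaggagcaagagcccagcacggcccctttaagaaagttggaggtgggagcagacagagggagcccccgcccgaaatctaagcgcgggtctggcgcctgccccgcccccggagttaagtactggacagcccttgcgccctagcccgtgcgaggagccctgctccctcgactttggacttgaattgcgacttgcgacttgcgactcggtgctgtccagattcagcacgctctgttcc

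The Flt1 and Selp windows each hold 2 matches, the Chst4 window 1 and the Cspg4 window none. The window of Sele, whose groups also did not overlap, holds 1 match and is not shown. AGGAAG was found in 13 of the 27 windows of the 24 genes (48.1%), against 35.4% of all 32851 windows of the same length, and CGGAAG in 1 (3.7%), against 16.9%. AGATAA, a string for GATA factors, was in 2 windows (7.41%, against 11.2% of all), and ACAAAG, a string for SOX factors, in 6 (22.2%, against 18.7%). These letters describe the windows and are not evidence of binding.

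Of the 39 genes, 38 passed the filter on dim probes (at least 3 of the 6 arrays well above background), and 36 of these were well above background on all 6 arrays. The defining endothelial genes Pecam1, Cdh5, Cldn5 and Vwf and the pericyte genes Pdgfrb, Rgs5 and Cspg4 were therefore measured in every sample of this epithelial preparation. No member passed an adjusted p of 0.05 in either direction by limma, against 0.337% of all entries called lower and 0.228% called higher. At an unadjusted p under 0.05, 10 members were lower (9.53% of all entries) and 1 was higher in null samples (13.5% of all entries). The median log2 difference of the 38 (null minus wild type) was -0.41, against 0.03 over all entries, and 33 of the 38 differences were negative (47.1% of all entries). Spike-in scaling added 0.34 to every difference, by which the members' median became -0.068 with 20 negative, so signs of small differences here hold relative to the other entries. In 9 members every null array lay below every wild-type array, and in none above (12% and 19.6% of all entries). Where a value is lower in such bulk samples, a smaller share of vessel cells and less RNA per vessel cell cannot be told apart.

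**Figure D1:**
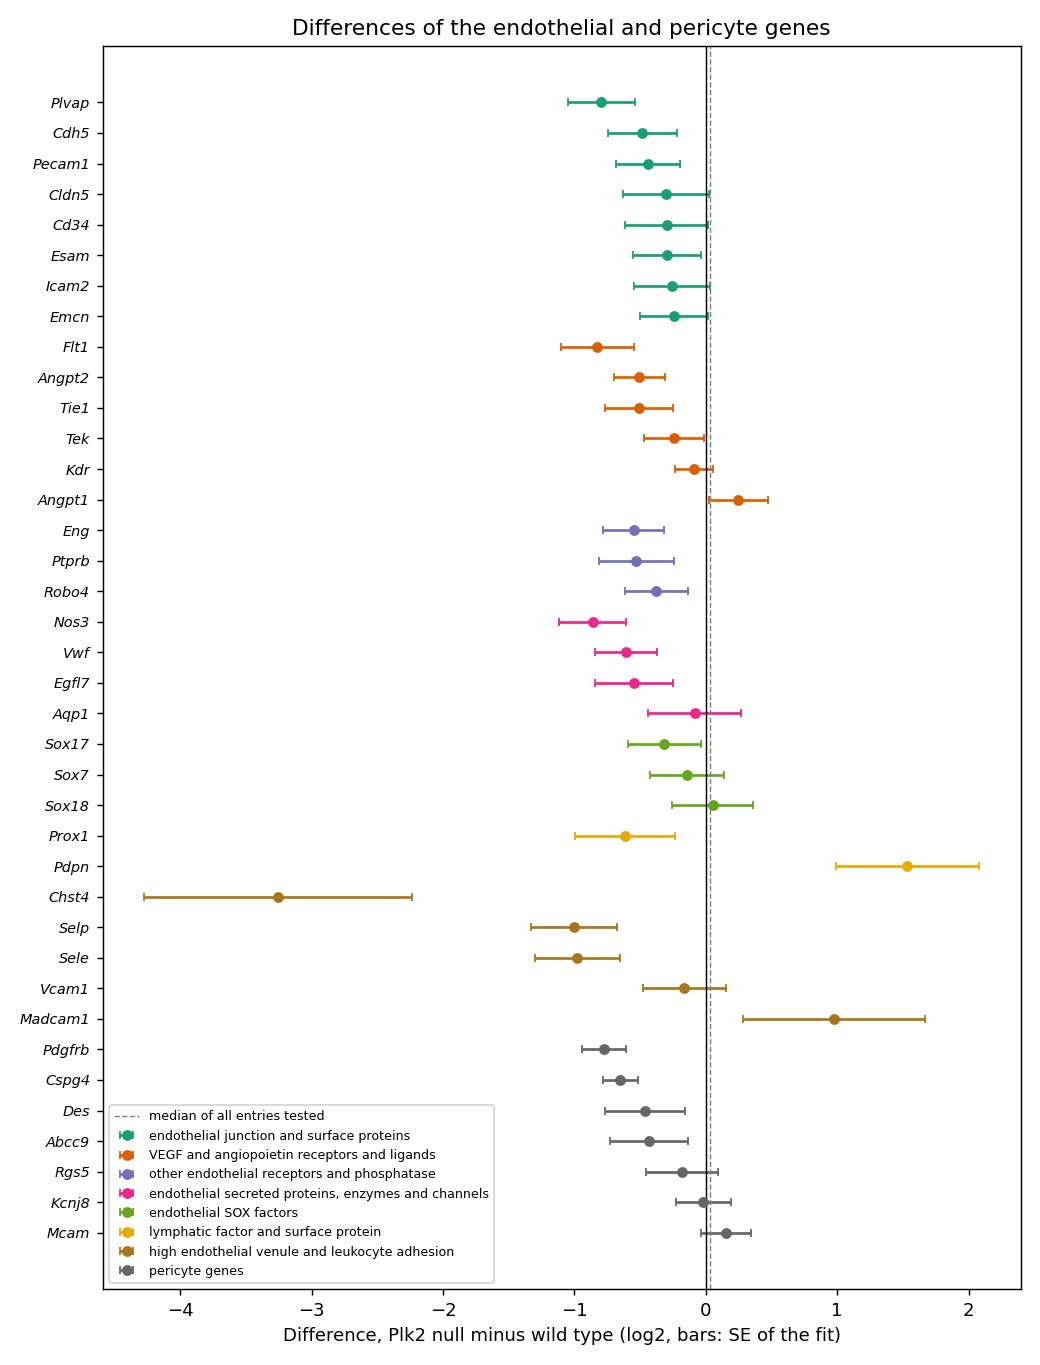
Difference of each of the 38 measured members, Plk2 null minus wild type, in log2 units, with the SE of the fit as bars and colours for the members' roles. The dashed line is the median of all entries tested, 0.03. Most points lie left of it, and Pdpn (1.53) and Madcam1 (0.98) lie farthest right. The leftmost point is Chst4, whose position is not a measured size, since 2 of its 3 null arrays are below background.

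The samples contributed unequally to these differences. The median deviation of the 38 members from the wild-type mean was -0.25, -0.79 and 0.00 in null samples 1, 2 and 3, against -0.26, 0.16 and 0.07 in wild-type samples 1, 2 and 3. Null sample 2 was the lowest of the 6 for 32 of the 38 members, against 18.8% of all entries. The order null sample 2, then 1, then 3 from low to high held for 25 members (22.3% of all entries). Null sample 3 lay inside the wild-type range for 19 (27.5% of all entries). Within wild type, sample 1 was the lowest for 28 members (36.1% of all entries). Without null sample 2 the median difference was -0.18 and 28 of the 38 were negative. Without null sample 3, 19 members had groups that did not overlap (20% of all entries), and without wild-type sample 1 there were 21 (16.5% of all entries).

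**Figure D2:**
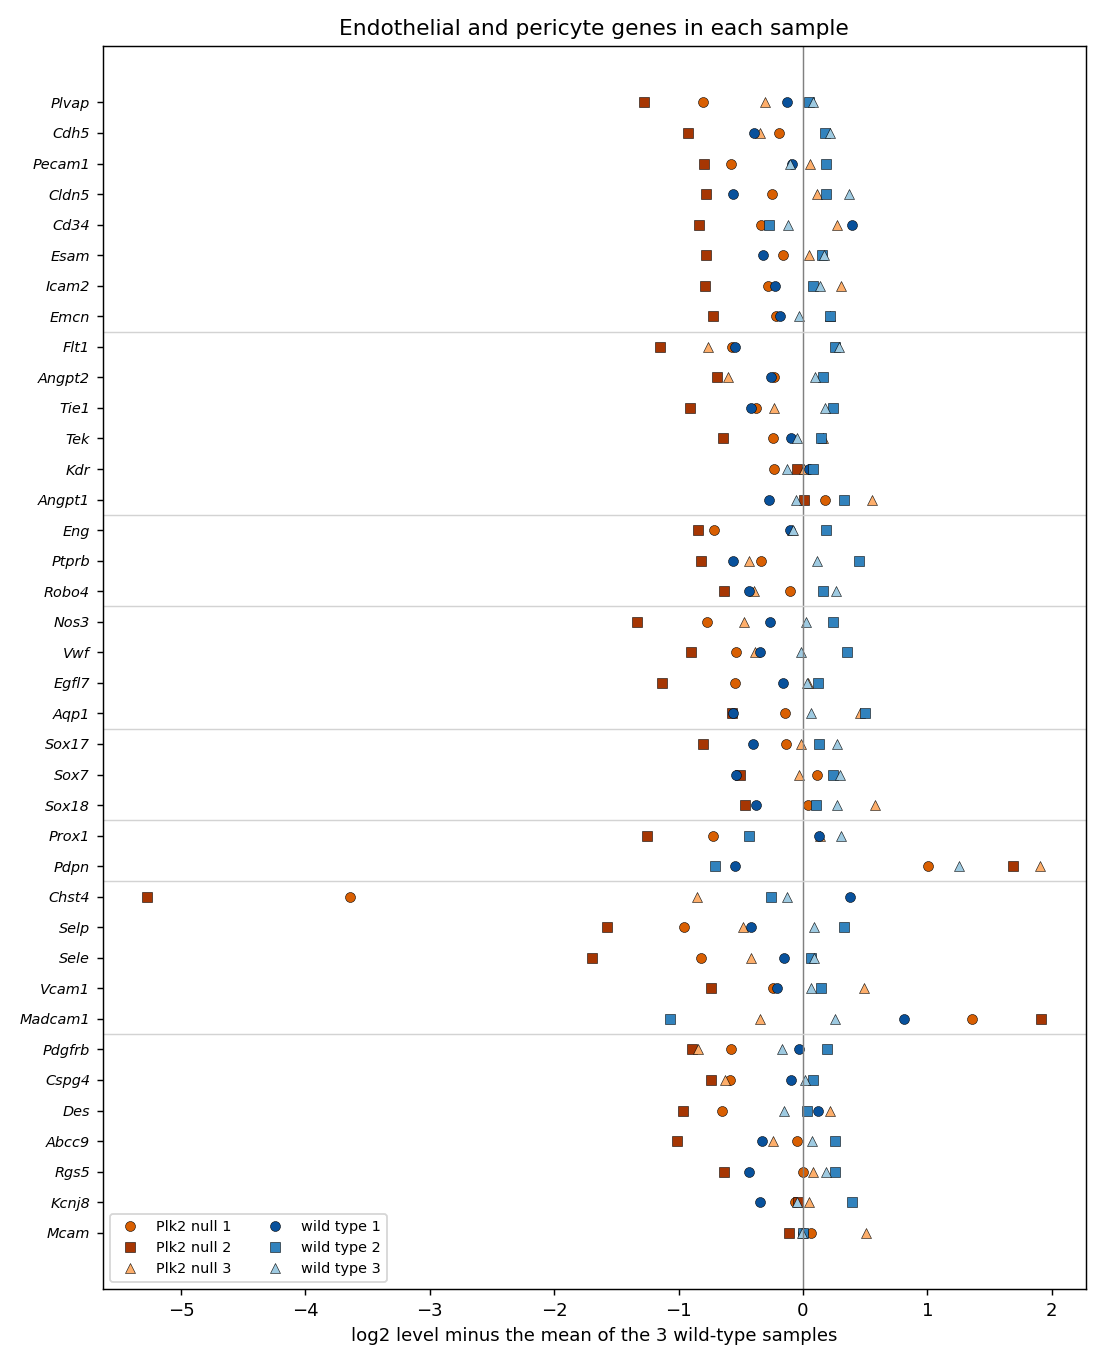
Level of each measured member in each sample, as the log2 difference from the mean of the 3 wild-type samples. Orange marks are Plk2 null and blue marks wild-type samples, and lines part the members' roles. The dark square of null sample 2 is the leftmost mark in 32 of the 38 rows.

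The junction and surface proteins of the endothelium shared null sample 2 as their lowest sample, for 8 of 8. Their 8 differences lay between -0.79 and -0.24, with a median of -0.30. That median was -0.061 without null sample 2, -0.55 without null sample 3 and -0.47 without wild-type sample 1, and 0.04 with spike-in scaling. Pecam1, an adhesion protein of endothelial junctions (NM_001032378, chromosome 11), had levels of 1.11, 0.89 and 1.75 in Plk2 null samples, against 1.60, 1.88 and 1.59 in wild-type samples; levels are log2 signals with the array's 75th percentile at 0. Null samples 1 and 2 lay below all wild-type samples and null sample 3 among them, and the difference was -0.44 (SE 0.25, limma adjusted p = 0.331). Cdh5, which encodes VE-cadherin, had levels of 2.86, 2.14 and 2.72 in Plk2 null samples, against 2.66, 3.23 and 3.27 in wild-type samples. Wild-type sample 1 lay below null samples 1 and 3, so the groups overlapped, with a difference of -0.48 (SE 0.26, limma adjusted p = 0.317). Plvap, which forms the diaphragms of fenestrated capillaries, had levels of 4.73, 4.26 and 5.23 in Plk2 null samples, against 5.41, 5.58 and 5.61 in wild-type samples. Every null sample lay below every wild-type sample, with a difference of -0.79 (SE 0.26, limma adjusted p = 0.143), and a further Plvap probe gave -1.15. The tight junction gene Cldn5 differed by -0.30 (SE 0.32), the junction protein gene Esam by -0.30 (SE 0.26), the sialomucin genes Cd34 and Emcn by -0.30 (SE 0.32) and -0.24 (SE 0.26), and the adhesion gene Icam2 by -0.25 (SE 0.29). Groups overlapped for all 5 of these.

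Among receptors for VEGF, Flt1 and Kdr differed in how their groups lay. Flt1, a receptor that binds VEGF-A and placental growth factor, had levels of 3.80, 3.23 and 3.62 in Plk2 null samples, against 3.83, 4.63 and 4.67 in wild-type samples. The groups did not overlap, although null sample 1 and wild-type sample 1 nearly met, and the difference was -0.83 (SE 0.28, limma adjusted p = 0.153). Kdr, the main signalling receptor for VEGF-A, had levels of 1.90, 2.08 and 2.14 in Plk2 null samples, against 2.18, 2.21 and 2.01 in wild-type samples. The samples of both groups were mixed, with a difference of -0.09 (SE 0.15, limma adjusted p = 0.735), and its further probe gave -0.29. Flt4, the receptor of lymphatic endothelium for VEGF-C, was the single member that did not pass the filter. Its processed signals were 2.9, 2.6 and 5.2 in null samples, not well above background in any, against 6.8, 11.3 and 12.9 in wild-type samples, where 1 of 3 was well above background. Because most wild-type values were also not well above background, no fold or lower bound is given for Flt4, and it was not tested.

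The angiopoietin receptors Tek and Tie1 differed by -0.24 (SE 0.23) and -0.51 (SE 0.26), with overlapping groups. Their ligands had opposite signs. Angpt2, which endothelial cells release and which can oppose Angpt1 at the receptor, had levels of 2.11, 1.66 and 1.74 in Plk2 null samples, against 2.09, 2.51 and 2.44 in wild-type samples. Null sample 1 was marginally above wild-type sample 1, and the other null samples lay below all of wild type, so the groups overlapped; the difference was -0.51 (SE 0.19, limma adjusted p = 0.187). Angpt1, the activating ligand made by perivascular cells, had levels of -0.57, -0.74 and -0.20 in Plk2 null samples, against -1.02, -0.42 and -0.81 in wild-type samples, a difference of 0.25 (SE 0.22, limma adjusted p = 0.539). The groups overlapped through wild-type sample 2, which lay above null samples 1 and 2.

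Of 3 further receptors, the TGF-beta co-receptor gene Eng had levels of 2.77, 2.64 and 3.41 in Plk2 null samples, against 3.39, 3.67 and 3.41 in wild-type samples. Null sample 3 was level with 2 of the wild-type samples and the other null samples were lower, with a difference of -0.55 (SE 0.23, limma adjusted p = 0.221). Ptprb, the phosphatase that acts on Tek and VE-cadherin, differed by -0.53 (SE 0.29) and Robo4, a guidance receptor of endothelial cells, by -0.38 (SE 0.24), both with overlap.

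Nos3 and Vwf, products by which endothelium is commonly recognised, were low in all null samples. Nos3, the endothelial nitric oxide synthase (NM_008713, chromosome 5), had levels of 3.10, 2.54 and 3.40 in Plk2 null samples, against 3.62, 4.11 and 3.90 in wild-type samples. No null sample reached the lowest wild-type sample, the difference was -0.86 (SE 0.26, limma adjusted p = 0.127), and a further probe gave -0.96. Vwf, the von Willebrand factor stored in endothelial granules, had levels of 5.20, 4.84 and 5.35 in Plk2 null samples, against 5.40, 6.10 and 5.73 in wild-type samples. The highest null sample lay just under the lowest wild-type sample, and the difference was -0.61 (SE 0.23, limma adjusted p = 0.189). Egfl7, a protein that endothelial cells secrete, differed by -0.55 (SE 0.30) and the water channel gene Aqp1 by -0.08 (SE 0.35), with overlap. The 3 SOX factors of endothelial fate had differences of -0.32 (SE 0.28) for Sox17, -0.14 (SE 0.28) for Sox7 and 0.05 (SE 0.31) for Sox18, their groups overlapped, and their median was -0.14. It turned to 0.039 without null sample 2, 0.0062 without wild-type sample 3 and 0.19 with spike-in scaling, and was -0.41 without wild-type sample 1, -0.27 without null sample 1 and -0.024 without wild-type sample 2.

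Adhesion genes by which leukocytes leave the blood had a median difference of -0.98, with 4 of 5 negative, and Chst4 and Madcam1 lay at opposite ends. The median was -0.62 without null sample 2, and -0.57 with genes above background on all arrays, which leaves out Chst4. Selp, P-selectin, had levels of 3.98, 3.35 and 4.45 in Plk2 null samples, against 4.51, 5.26 and 5.02 in wild-type samples. Sele, E-selectin, had levels of -0.57, -1.45 and -0.18 in Plk2 null samples, against 0.09, 0.31 and 0.33 in wild-type samples. In both genes every null sample was lower than every wild-type sample, with differences of -1 (SE 0.33, limma adjusted p = 0.146) for Selp and -0.98 (SE 0.32, limma adjusted p = 0.15) for Sele. Chst4, a sulfotransferase that makes the L-selectin ligands of high endothelial venules (NM_011998, chromosome 8), had levels of -5.59, -7.22 and -2.80 in Plk2 null samples, against -1.57, -2.21 and -2.08 in wild-type samples. The probe was well above background on 1 of 3 null and 3 of 3 wild-type arrays, the values of null samples 1 and 2 being below background. The fitted difference was -3.25 (SE 1.02, limma adjusted p = 0.138), and its size rests on those 2 values and is not a measured fold. Null sample 3, the only null array with Chst4 well above background, lay 0.85 below the wild-type mean. Without null sample 3 both null arrays are below background, and with them held at their detection limits Chst4 was at least 8.81-fold lower than in wild-type samples. That bound does not cover null sample 3 and was not tested. The fit without null sample 3 (limma adjusted p = 0.0177) used the values below background, so its p does not belong to the bound. Madcam1, the mucosal addressin, which lymphocytes bind through an integrin, had levels of -0.05, 0.51 and -1.74 in Plk2 null samples, against -0.59, -2.47 and -1.14 in wild-type samples. The order was unlike that of Chst4: null samples 2 and 1 were the highest of the 6 and null sample 3 was below wild-type samples 1 and 3, with a difference of 0.98 (SE 0.69, limma adjusted p = 0.438). Vcam1, another ligand of leukocyte integrins, differed by -0.16 (SE 0.31) with overlap.

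The 2 lymphatic members that were measured had opposite signs on their brightest probes, although a further Pdpn probe was negative like Prox1. Prox1, the transcription factor that sets lymphatic identity, was near background (well above it on 1 of 3 null and 2 of 3 wild-type arrays) and differed by -0.61 (SE 0.38, limma adjusted p = 0.375). Pdpn encodes podoplanin, a mucin-like protein of lymphatic endothelium that stromal and basal epithelial cells also make. Its levels were 4.18, 4.86 and 5.07 in Plk2 null samples, against 2.63, 2.46 and 4.42 in wild-type samples. Wild-type sample 3 lay above null sample 1, so the groups overlapped, and the difference was 1.53 (SE 0.54, limma adjusted p = 0.167). A further Pdpn probe, also well above background on all arrays, gave -0.10, so the probes of this gene disagree. The basal keratin gene Krt5 had levels of 5.57, 6.19 and 6.21 in Plk2 null samples, against 4.07, 5.28 and 5.72 in wild-type samples. Krt14, its partner, had levels of 6.26, 6.08 and 5.95 in Plk2 null samples, against 4.41, 5.47 and 5.67 in wild-type samples. Both were lowest in wild-type sample 1, whereas Pdpn was lowest in wild-type sample 2, and their part in the Pdpn values was not tested.

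**Figure D3:**
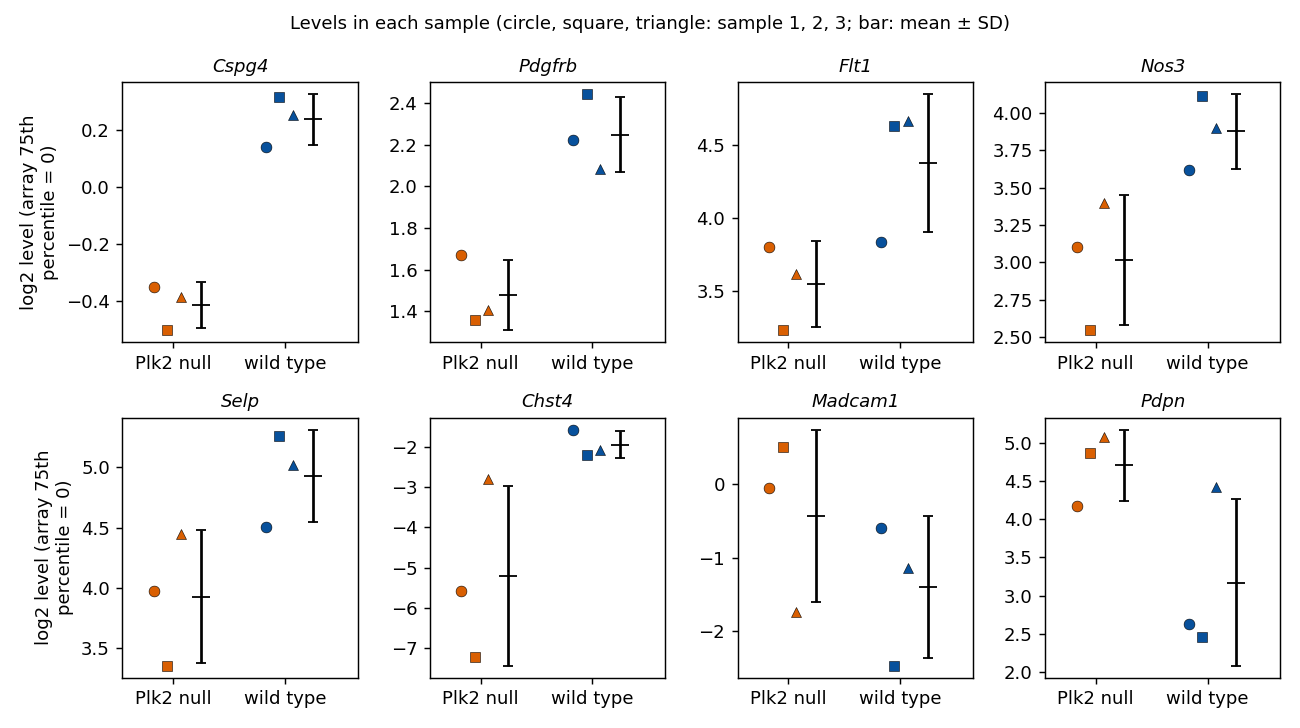
Log2 level in each sample for 8 members, with the array's 75th percentile at 0 and a separate axis for each gene. Circle, square and triangle are samples 1, 2 and 3 of each group, and bars are mean ± SD (n = 3). Groups are apart for Cspg4, Pdgfrb, Flt1, Nos3, Selp and Chst4 and overlap for Madcam1 and Pdpn. For Chst4, 2 null arrays are below background, so its null mean and SD are not measured levels. Pdpn is shown by its brightest probe, and a further probe gave a difference of -0.10.

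Among pericyte genes, Cspg4 and Pdgfrb had the smallest p-values of all 38 members and in both null sample 3 lay with the other null samples, away from wild type. Cspg4, a proteoglycan of the pericyte surface (NM_139001, chromosome 9), had levels of -0.35, -0.50 and -0.39 in Plk2 null samples, against 0.14, 0.32 and 0.25 in wild-type samples. All null samples lay close together and under wild type, the means being -0.41 ± 0.08 in null and 0.24 ± 0.09 in wild-type samples (SD, n = 3 each). The difference was -0.65 (SE 0.14, limma adjusted p = 0.0776). Pdgfrb, the receptor through which vessels recruit pericytes (NM_001146268, chromosome 18), had levels of 1.67, 1.36 and 1.40 in Plk2 null samples, against 2.22, 2.44 and 2.08 in wild-type samples. Its means were 1.48 ± 0.17 in null and 2.25 ± 0.18 in wild-type samples (SD, n = 3 each), with a difference of -0.77 (SE 0.17, limma adjusted p = 0.0816). Both passed an adjusted p of 0.1, the looser threshold that 3.03% of all entries passed as lower, and no other member did. Fibroblasts also express Pdgfrb. Both passed 0.05 with another background correction (adjusted p = 0.0326 for Cspg4 and 0.0351 for Pdgfrb) and with the deposited normalized values (0.0324 and 0.0471). Each passed in 3 of 17 alternative settings. The adjusted p reached 0.427 for Cspg4 and 0.32 for Pdgfrb, both with spike-in scaling, where the differences were -0.31 and -0.44.

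The other pericyte genes gave smaller differences. Desmin, encoded by Des, had levels of -0.72, -1.03 and 0.14 in Plk2 null samples, against 0.05, -0.04 and -0.23 in wild-type samples, with null samples 1 and 2 under all wild-type samples and null sample 3 above them, a difference of -0.46 (SE 0.31). Abcc9 and Kcnj8, subunits of the potassium channel of pericytes, differed by -0.43 (SE 0.29) and -0.02 (SE 0.21). Rgs5, a regulator of G-protein signalling much used as a pericyte marker, differed by -0.18 (SE 0.27), and Mcam, an adhesion protein of endothelium and pericytes, by 0.16 (SE 0.19), while a further Mcam probe gave -0.30. Groups overlapped for all 5 genes.

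Lists of other vascular genes were described in the same fit. Of 12 measured endothelial transcription factors, all had negative differences (median -0.45) and null sample 2 was the lowest sample for all 12. The median was -0.17 without null sample 2 and -0.73 without null sample 3. Ets1, a factor of endothelial cells that lymphocytes also express strongly, was the only gene of the vascular lists to pass the test, and it fell. Its levels were 2.32, 2.18 and 2.63 in Plk2 null samples, against 3.46, 3.59 and 3.58 in wild-type samples, a difference of -1.17 (SE 0.17, limma adjusted p = 0.048). Ets1 did not pass with spike-in scaling (adjusted p = 0.0756), when dim probes were kept (0.122), with the mean of a gene's probes (0.0643), or when any sample but null sample 3 was left out (0.107 to 0.158). In the same list Mef2c differed by -0.97 (SE 0.23) and Bcl6b, a repressor of endothelial cells, by -0.92 (SE 0.30). Which cells of the preparation expressed the factors of this list was not tested. Lymphocyte genes, described further down, had a median difference of -2.48 in the same samples.

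Of 6 measured lymphatic endothelial genes, 5 were negative (median -0.95), and their medians were -0.86, -1.30 and -1.07 in null samples 1, 2 and 3, as deviations from wild type. Lyve1, a hyaluronan receptor of lymphatic endothelium and of some macrophages, had levels of -0.22, -0.57 and -0.31 in Plk2 null samples, against 1.76, 0.18 and 0.93 in wild-type samples, a difference of -1.32 (SE 0.38, limma adjusted p = 0.122). Nrp2, a co-receptor for VEGF-C, differed by -0.83 (SE 0.18) and Foxc2, a factor of lymphatic valves also expressed in mesenchyme, by -1.37 (SE 0.33). No gene of this list passed the test.

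Arterial, venous and tip cell genes had a median of -0.16 over 16, with 11 negative. Esm1, a marker of tip cells, differed by -0.88 (SE 0.22), the netrin receptor gene Unc5b by -0.63 (SE 0.21) and the Notch target Hey1 by 0.69 (SE 0.23), and none of the 16 passed. Capillary and metabolic genes had a median of -0.13 over 16, with 9 negative. The sphingosine phosphate receptor gene S1pr1 differed by -0.89 (SE 0.22), the glucose transporter gene Slc2a1 by -0.55 (SE 0.17) and Cd93 by -0.68 (SE 0.22), and none passed. Whether lymphocytes or epithelial cells gave part of the values of this list was not tested. Further pericyte and smooth muscle genes had a median of -0.08 over 12, with 8 negative and none past the test. In that list Ebf1 differed by -0.74 (SE 0.23), Notch3, the Notch receptor of mural cells, by -0.43 (SE 0.18) and Vtn by -0.68 (SE 0.34). Whether lymphocytes gave part of the Ebf1 value was not tested. Contractile genes that vascular smooth muscle shares with the myoepithelium had a median of 0.35, with 7 of 7 positive and none past the test, among them the smooth muscle actin gene Acta2 at 0.65 (SE 0.22), Cnn1 at 0.69 (SE 0.32) and Mylk at 0.38 (SE 0.21).

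The medians near 0 among these lists depended on single samples. Without null sample 2 they were 0.0028 for the arterial, 0.011 for the capillary, 0.0061 for the further pericyte and 0.20 for the contractile list. Without null sample 3 they were -0.35, -0.33 and -0.30 for the first 3 of these. Without wild-type sample 1 the arterial median was -0.35, the further pericyte median -0.22 and the contractile median 0.15. Without wild-type sample 2 the arterial, capillary and further pericyte medians were -0.059, -0.052 and 0.017. Leaving out null sample 1 gave -0.045 for the capillary and -0.13 for the further pericyte list, and leaving out wild-type sample 3 gave -0.079 for the capillary list. The common shift of spike-in scaling makes the arterial (0.18), capillary (0.21) and further pericyte (0.26) medians positive and does not alter how the lists stand to each other.

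Genes of the other cells in the preparation varied beside the vascular genes. Summed levels, in multiples of the array's 75th percentile, ran from 324.0 to 570.2 for the 38 members in null samples and from 489.1 to 613.4 in wild type. For the 19 lymphocyte genes measured, the sums ran from 12.5 to 29.0 in null samples and from 62.5 to 112.0 in wild type. As deviations from wild type, lymphocyte medians were -2.82, -3.22 and -1.34 in null samples 1, 2 and 3, against 0.45, -0.24 and -0.31 in wild-type samples 1, 2 and 3. Wild-type sample 1 thus had the highest lymphocyte median of its group, and was the lowest of its group for most vascular members. Cd79b, a part of the B cell receptor, differed by -2.49 (SE 0.43), Cd3e, a part of the T cell receptor, by -2.11 (SE 0.38) and Il7r, the receptor for the lymphocyte growth factor interleukin-7, by -2.70 (SE 0.50). None of the lymphocyte genes passed an adjusted p of 0.05. At an unadjusted p under 0.05, 16 were lower and 1 was higher, against 9.53% and 13.5% of all entries. The pan-leukocyte gene Ptprc differed by -1.55 (SE 0.40).

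Fibroblast genes had medians of -0.45, -0.73 and -0.21 in null samples 1, 2 and 3 and -0.16 to 0.10 in wild type, with all 14 differences negative and summed levels of 1312 to 1875 in null and 1964 to 2198 in wild-type samples. Among them Sfrp2 differed by -0.63 (SE 0.18), Fbln2 by -0.94 (SE 0.30), and the collagen genes Col6a2 and Col1a1 by -0.67 (SE 0.20) and -0.40 (SE 0.15). Myeloid medians were -0.41, -0.90 and -0.11 in null samples and -0.24 to 0.39 in wild type, with summed levels of 163.7 to 202.6 in null and 180.4 to 259.3 in wild-type samples. The macrophage receptor genes Mrc1 and Cd163 differed by -0.93 (SE 0.32) and -1.02 (SE 0.32), and the endotoxin co-receptor gene Cd14 by 0.44 (SE 0.17). Epithelial medians lay between -0.13 and 0.17 in all 6 samples, and their median difference was -0.06, from -0.095 without wild-type sample 3 to 0.052 without null sample 2; spike-in scaling gave 0.27. Krt8 differed by -0.10 (SE 0.17), Krt18 by 0.06 (SE 0.15), Epcam by 0.09 (SE 0.21), Cldn4 by -0.71 (SE 0.23) and Cldn7 by 0.34 (SE 0.14). Single epithelial differences ran from -1.02 to 0.97, with 8 negative and 7 positive. The basal keratin genes Krt5 and Krt14 differed by 0.97 (SE 0.44) and 0.92 (SE 0.33). Genes of mitosis had medians of 1.59, 3.25 and 1.67 in null samples, highest in null sample 2, and -0.29 to 0.36 in wild type. Among them Bub1 differed by 2.56 (SE 0.47), Nusap1 by 2.39 (SE 0.47) and Birc5 by 2.34 (SE 0.46). All 12 measured were higher in null samples at an unadjusted p under 0.05 (13.5% of all entries) and without overlap (19.6% of all entries). None of these lists had a member past an adjusted p of 0.05, and their part in the vascular values was not tested.

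**Figure D4:**
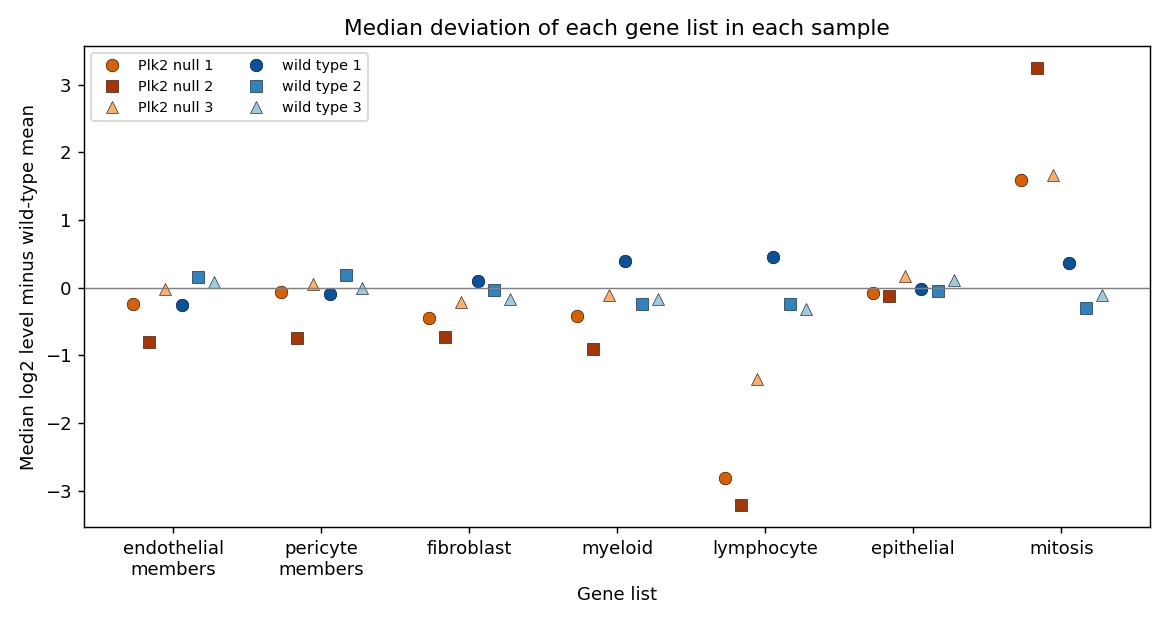
Median log2 deviation from the wild-type mean for 7 gene lists, with Plk2 null samples in orange and wild-type samples in blue. Endothelial and pericyte members are lowest in null sample 2 (-0.80 and -0.74), and lymphocyte genes are low in all null samples (-3.22 to -1.34). Epithelial medians lie near 0, although differences of single epithelial genes ran from -1.02 to 0.97.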

How the data were processed

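Expression was measured on 6 one-colour Agilent arrays, 3 Plk2 null and 3 wild type. Per the file headers, they were of design 028005, annotated on mm9, and read with Feature Extraction 11.0.1.1 under protocol GE1_1100_Jul11. The deposited intensity used is the processed signal, a spot value from which the scanner software had removed background but which was not normalized between arrays, per the file headers. The authors' table of normalized intensities, with nearly equal distributions in its 6 columns, served as an alternative, and its normalization method is not named by labels or headers.

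Signals were taken to log2 and each array's 75th percentile over gene spots was subtracted. Control spots and 1119 outlier gene spots were left out, none was saturated, and spots of a probe were averaged. Accessions without version were matched to RefSeq transcripts (GRCm38.p6, for names only), which named 26582 of 55681 probes. Kept were probes that at least 3 of 6 arrays showed well above background, and a gene's brightest kept probe on average stood for it. Differences are null minus wild type, fitted over all 24613 entries with limma 3.58.1 in R 4.3.3 (lmFit, eBayes, Benjamini-Hochberg, threshold 0.05). The number of probes well above background was 29441 ± 1002 in null and 28419 ± 609.6 in wild-type samples (SD, n = 3 each; 2-sided exact permutation p = 0.2, smallest possible 0.1). The fit was tested on simulated data with independent noise for each entry and no shifts shared within a sample. It therefore says nothing of such shifts in the real arrays.

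All members are accounted for, with the 3 genes of smallest p from each of 15 companion lists and fixed lineage markers. Members and lists were chosen with earlier results of these data known. Alternatives were other background corrections, scalings, filters, probe rules, moderation, array weights, a replicate block, each sample left out and the deposited values.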

Additional observations from a re-analysis of the deposited data

How the results depend on the processing

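Scaling on spike-in controls raised the median of all entries from 0.03 to 0.37, and the members' median became -0.068. That shift was common to all entries and left the members' gap to them as it was. There were then 20 negative differences, with 1 member lower and 2 higher at an unadjusted p under 0.05 (3.13% and 26.4% of all entries). With that scaling the sign turned for Kdr (0.25), Tek (0.096), Emcn (0.095), Esam (0.041), Cldn5 (0.035), Sox17 (0.022), Sox7 (0.19), Cd34 (0.038), Icam2 (0.083), Aqp1 (0.25), Vcam1 (0.17), Rgs5 (0.15), Kcnj8 (0.32). It also turned for Kcnj8 (0.012) with quantile normalization, Kcnj8 (0.018) with median centring, Mcam (-0.071) with the mean of probes and Sox18 (-0.11) with array weights. With a sample left out, differences spanned 0 for Sox18 (-0.21 to 0.31, turned without null sample 3 or wild-type sample 1), Sox7 (-0.41 to 0.039, turned without null sample 2 or wild-type sample 3), Icam2 (-0.54 to 0.014, turned without null sample 2), Aqp1 (-0.36 to 0.17, turned without null sample 2 or wild-type sample 2), Vcam1 (-0.49 to 0.12, turned without null sample 2), Rgs5 (-0.40 to 0.039, turned without null sample 2), Kcnj8 (-0.19 to 0.18, turned without null sample 1 or wild-type sample 2) and Mcam (-0.020 to 0.29, turned without null sample 3). None of these was called in either setting. Members called lower numbered 2 with normexp background correction (Cspg4, Pdgfrb), 1 with trended robust moderation (Pdgfrb), 2 with array weights (Cspg4, and Chst4, whose size is not measured) and 3 with the deposited values (Cspg4, Pdgfrb, Plvap), and 0 to 1 with a sample left out. The cause was not tested. With a sample left out the members' median ran from -0.53 to -0.18 and negative differences from 28 to 35. Members lower in null samples without overlap ran from 9 to 21 (14.4% to 20% of all entries). At an unadjusted p under 0.05, 4 to 15 members were lower (6.37% to 11.9% of all entries) and 0 to 1 higher (8.26% to 13.3%). Array weights gave 16 lower at that p (11.8% of all entries), and the mean of probes 0 higher (13.2% of all entries). Counts at that p and of overlap were added after the data were seen. Over all entries, lower and higher calls were 514 and 718 with normexp, 166 and 179 with median centring, 151 and 385 with spike-in scaling, 26 and 5 without the filter, 175 and 204 for probes above background on all arrays, 388 and 459 with trended moderation, 640 and 550 with array weights, 378 and 377 with the deposited values, and 6 to 464 and 1 to 237 with a sample left out (464 lower without null sample 3, 6 without null sample 1 or wild-type sample 2). Same-numbered samples correlated at -0.12, 0.04 and -0.02 in their deviations, and differently numbered ones at -0.17 to 0.21. Pairing by the titles' numbers was not seen in these values, which are too few to exclude it. With a replicate block there were 6 lower and 2 higher calls, no member among them, and the members' median was -0.41, while Ets1 had an adjusted p of 0.126. The Plk2 difference was called throughout, at -9.36 to -9.25 with a sample left out, -4.49 with normexp and -4.64 with the deposited values, and could not be fitted where all arrays had to be above background. These sizes rest on null values not well above background and are not measured folds. Few arrays and signals near background (Chst4, Prox1, Flt4) limit the values.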

Other observations

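Genes of lymph node stroma and high endothelial venules other than the members were measured for 9 of 9 listed, 8 with negative differences and a median of -0.83. None passed an adjusted p of 0.05 (limma), and 6 had an unadjusted p under 0.05 as lower, against 9.53% of all entries. As deviations from wild type, their medians were -0.88, -1.44 and -0.28 in null samples 1, 2 and 3, against 0.10, -0.03 and -0.17 in wild-type samples. Cr2, the complement receptor of B cells and follicular dendritic cells, had levels of -3.97, -4.78 and -2.32 in Plk2 null samples, against -0.64, -1.61 and -1.24 in wild-type samples, a difference of -2.52 (SE 0.61). Fut7, a fucosyltransferase that builds selectin ligands in high endothelial venules and leukocytes, had levels of -1.25, -1.39 and -0.02 in Plk2 null samples, against 0.33, 0.23 and 0.21 in wild-type samples, a difference of -1.15 (SE 0.36). Chst2, another sulfotransferase of high endothelial venules, had levels of -1.20, -1.25 and -1.60 in Plk2 null samples, against -0.44, -0.39 and -0.80 in wild-type samples, a difference of -0.80 (SE 0.19). Null sample 3 was the highest null sample for Cr2 and Fut7 and the lowest for Chst2.

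Vascular ligands had a median of -0.16 over 10 genes (0.18 with spike-in scaling, -0.054 without null sample 2, -0.26 without null sample 3 and -0.096 without wild-type sample 2), 7 of them negative, with none past the test. Vegfb had levels of 0.65, 1.27 and 0.94 in Plk2 null samples, against 0.39, 0.28 and 0.45 in wild-type samples, a difference of 0.58 (SE 0.19), and Pgf, which encodes the placental growth factor that binds Flt1, differed by -0.52 (SE 0.19) and Tgfb1 by -0.28 (SE 0.14). Platelet and megakaryocyte genes, which share Selp with the endothelium, passed the filter for 6 of 10, with a median of -0.45 (-0.20 without null sample 2) and summed levels of 8.17 to 16.1 in null and 13.7 to 20.1 in wild-type samples. Pf4 differed by -0.58 (SE 0.29), Itga2b by -0.50 (SE 0.23) and Gp1bb by -0.49 (SE 0.22). Adipocyte genes had a median of 0.13 over 8 genes (-0.14 without wild-type sample 2 to 0.40 without wild-type sample 1), with Adipoq at 0.24 (SE 0.39), Retn at -0.78 (SE 0.49), Pck1 at 0.66 (SE 0.45) and Plin1 at 0.28 (SE 0.24).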
